A study of Rattus norvegicus with 3 samples.

Results

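Claudins, connexins and their partner genes build the junctions that seal and couple neighbouring cells. The set described here comprises the claudins (Cldn), the connexins (Gja to Gjd), the zonula occludens scaffolds (Tjp), occludin (Ocln), junctional adhesion molecule A (F11r), the Marveld proteins, cingulin (Cgn), E-cadherin (Cdh1) and P-cadherin (Cdh3), chosen by gene symbol and not by level. Of the 14217 genes measured, 34 belonged to it: 16 claudins, 11 connexins, 2 other tight junction membrane proteins, 3 plaque proteins and 2 cadherins. Marveld2 and Marveld3 were not analysed here. The tissues were soft tissue from the upper first molar region of wild-type male Sprague Dawley rats aged 9 weeks, with 1 array each. Peri-implant connective tissue (PICT) surrounded a titanium alloy implant set into the fresh extraction socket, oral mucosa connective tissue (OMCT) came from a healed extraction site without an implant, and periodontal connective tissue (PCT) surrounded a natural molar. PICT and OMCT were taken after healing for the same time, and all tissues were isolated by laser microdissection, in which a selected part of a tissue section is cut free and collected. The series text once calls the PCT donors mice, whereas the labels give rat for every sample, and how many animals went into an array is not stated by the labels.

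Claudins are membrane proteins that polymerise into tight junction strands and set how tightly and how selectively the space between cells is sealed. Occludin and junctional adhesion molecules sit in the same strands, and the scaffolds of the zonula occludens family and cingulin tie them to the actin skeleton. Connexins assemble into hexameric channels whose docking across the gap between cells forms gap junctions, through which ions and small metabolites pass. Classical cadherins hold adherens junctions together, and without them tight junctions do not assemble properly. In stratified oral epithelium these families differ by layer, and in connective tissue they are mainly found in vessels and fibroblasts.

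With 1 array per tissue, no difference below has a replicate check and none was tested. Differences are given as relative log2 differences: the log2 of intensity plus a small constant, with each array's median subtracted. A gene is called higher or lower when this difference is at least 1 (2-fold) and the brighter array of the pair lies at or above its own median probe set. The subtraction matters for PCT, since the median intensity was 56.5 in PICT, 57.4 in OMCT and 34.3 in PCT. A gene with the same deposited intensity in PICT and PCT therefore has a relative difference of -0.60, and one with the same intensity in OMCT and PCT has -0.62, while for PICT and OMCT this shift is only 0.02. As a gauge of technical spread, probe sets of 1 gene had relative differences with an SD of 0.42 for PICT minus PCT, 0.38 for PICT minus OMCT and 0.39 for OMCT minus PCT, over 2410 genes with several probe sets at or above the median level. For Hk1, a control gene probed at both ends, the 3' over 5' signal ratio, which grows as RNA is shortened, was 1.58 in PICT, 1.97 in OMCT and 2.80 in PCT. The labels name connective tissue, yet the basal epithelial keratin Krt5 had an intensity of 7965 in PICT, 8595 in OMCT and 9565 in PCT, so epithelial RNA was in every array. In such bulk tissue, fewer cells of a type and less RNA per cell cannot be told apart.

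The healed extraction site had the lowest level of many epithelial junction genes, and its widest gaps to PICT were in the connexins Gjb6 and Gjb2 and the claudin Cldn4. In PICT minus OMCT, 6 of 34 members were higher (17.6%), against 4.15% of all genes, and 1 was lower, against 4.46%. The 6 were Gjb6, Cldn4, Gjb2, Cdh1, Ocln and Cdh3, and the lower gene was Cldn5. In OMCT minus PCT, 11 members were lower (32.4%), against 4.81% of all genes, and 0 were higher, against 5.66%. In PICT minus PCT, 6 members were lower (17.6%), against 3.37% of all genes, and 0 were higher, against 3.98%. These comparisons share arrays and are not independent of each other.

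The counts against PCT depend on how the arrays are scaled. As deposited, 5 members were lower in OMCT than in PCT, against 2.1% of all genes, and 1 was higher, against 17.6%. As deposited, 1 member, Cldn5, was lower in PICT than in PCT, against 0.9% of all genes, and 3 were higher, against 14.1%. Those 3 were Cldn4, Gjb2 and Gjb6, and the member higher in OMCT than in PCT was Gjc1. The 6 higher members and the lower member of PICT minus OMCT were the same genes on both scales, where the deposited scale called 3.98% of all genes higher and 4.64% lower.

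Across all 34 members the median relative difference was 0.06 for PICT minus OMCT, against -0.04 over all genes. It was -0.63 for PICT minus PCT, against -0.13, and -0.68 for OMCT minus PCT, against -0.08. As deposited, the last pair of medians came to -0.026 and -0.058, against 0.47 and 0.54 over all genes. Both relative medians against PCT lie near the value of a gene with equal deposited intensity. The constant added before the log2 pulls dim genes towards that value, and many members were dim. The gap to all genes thus does not show that the set as a whole was lower. On the relative scale 13 of the 34 members passed the rule in at least 1 comparison. The share of all genes that did so was not computed, and the shares per comparison above are no background for this count. In another 13 members every array lay below its median, which no count above could include. They were 9 claudins, 3 connexins and Tjp3, with intensities between 0.841 and 23.9, and Cldn16 stayed at or under the brightest negative control (8.36 in PICT, 3.60 in OMCT and 5.71 in PCT) on every array.

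**Figure D1:**
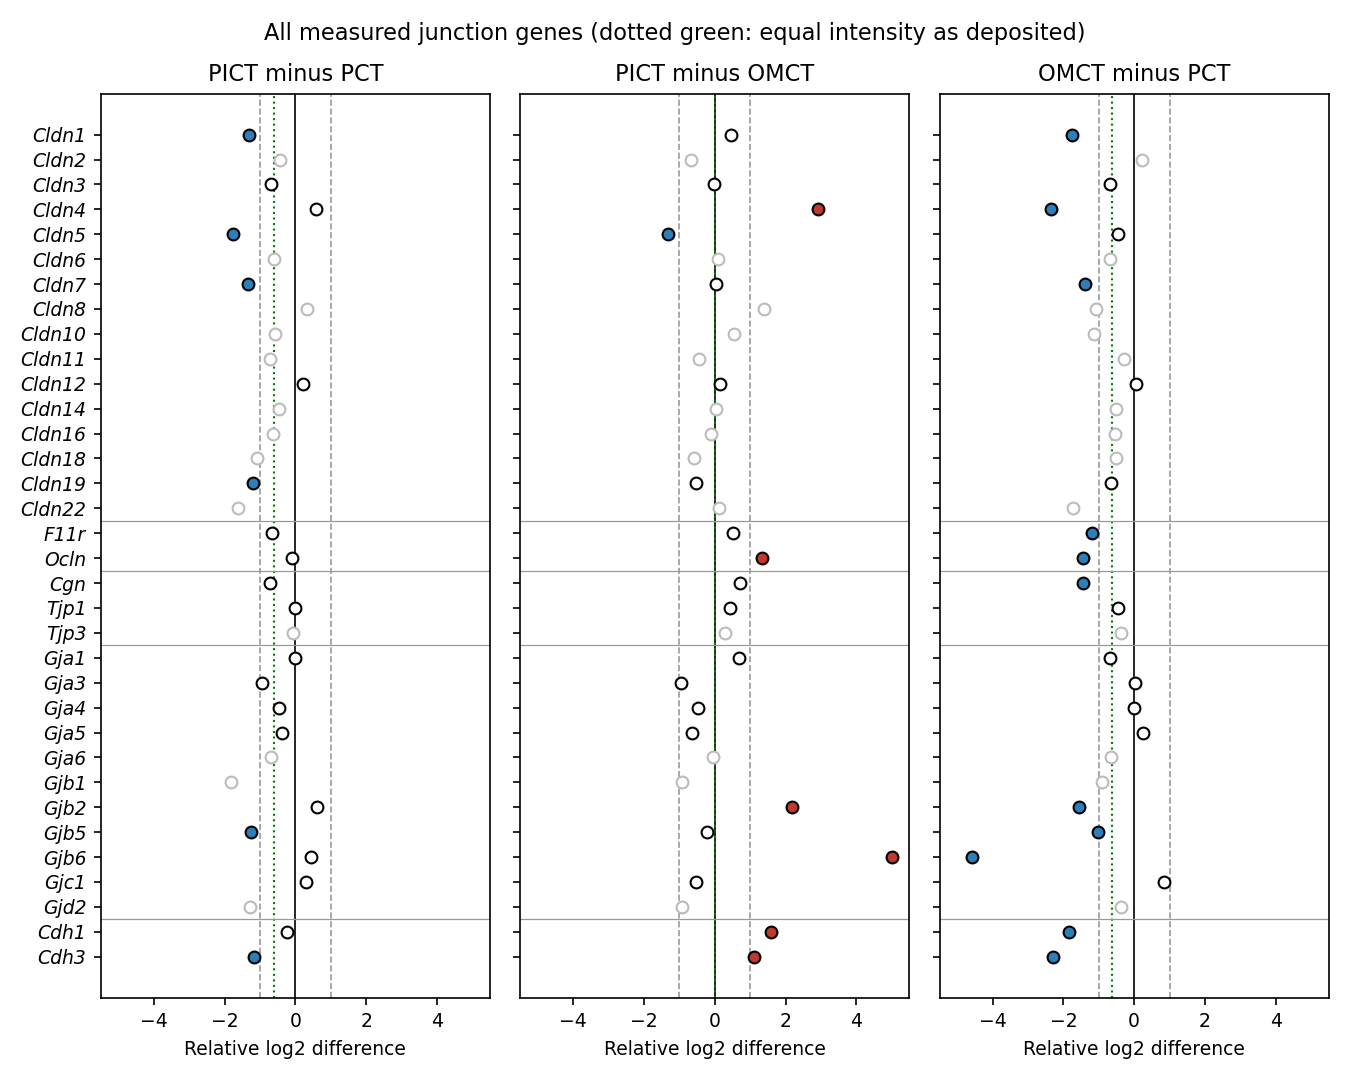
Relative log2 difference of each of the 34 measured junction genes in PICT minus PCT, PICT minus OMCT and OMCT minus PCT. Filled points passed the 2-fold rule (red higher, blue lower), grey outlines mark genes below the median on all arrays, dashed lines stand at -1 and 1, and the dotted green line marks equal deposited intensity. Gjb6 lies farthest out, at 5.02 in PICT minus OMCT and -4.58 in OMCT minus PCT.

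Among the claudins, Cldn4, a sealing claudin of epithelia, had an intensity of 705 in PICT, 86.5 in OMCT and 306 in PCT. It was thus high around the implant, low in the healed site and in between around the tooth. The relative difference was 2.93 for PICT minus OMCT, 0.58 for PICT minus PCT and -2.35 for OMCT minus PCT; as deposited PICT exceeded PCT by 1.18. Its chromosomal neighbour Cldn3, another epithelial claudin that lies next to it with no protein-coding gene between, stood at 63.0 in PICT, 64.4 in OMCT and 67.8 in PCT. Cldn3 did not follow Cldn4 and passed the rule in no comparison, with a difference of -0.01 for PICT minus OMCT.

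Cldn1, the claudin that the epidermal water barrier depends on in mice, had an intensity of 152 in PICT, 109.7 in OMCT and 251 in PCT. It was highest around the tooth, with relative differences of -1.30 for PICT minus PCT and -1.76 for OMCT minus PCT, and -0.70 and -1.14 as deposited. Its other 2 probe sets read 84.7 and 57.9 in PICT, 55.1 and 23.3 in OMCT, and 215 and 97.5 in PCT. All 3 probe sets put PCT highest and OMCT lowest, and their PICT minus OMCT differences of 0.46, 0.57 and 1.08 straddled the 2-fold line. Cldn7, an epithelial claudin of the lateral membrane, had an intensity of 17.1 in PICT, 16.8 in OMCT and 34.5 in PCT. Its PCT value lies barely above that array's median, so its calls of -1.35 (PICT minus PCT) and -1.38 (OMCT minus PCT) rest on the level filter, and both differences were under 1 as deposited.

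Cldn5, the main claudin of blood vessel endothelium, had another order of tissues than the epithelial members above. Its intensity was 83.2 in PICT, 223 in OMCT and 196 in PCT, so PICT was low and the other tissues lay close together. The relative difference was -1.31 for PICT minus OMCT, -1.76 for PICT minus PCT (-1.15 as deposited) and -0.44 for OMCT minus PCT. Cldn19, a claudin known from kidney tubules and peripheral nerve sheaths, had an intensity of 27.0 in PICT, 43.6 in OMCT and 45.1 in PCT, with -1.20 for PICT minus PCT and -0.59 as deposited. Sox10, a Schwann cell transcription factor, had an intensity of 3.20 in PICT, 36.8 in OMCT and 35.3 in PCT, where the PICT value stayed under the negative controls. Mbp, a myelin protein, had another order, at 134 in PICT, 123 in OMCT and 374 in PCT, and was also lower in OMCT than in PCT, at -2.16. Of the 4 measured Schwann cell genes, 2 (Sox10 and Mbp) were lower in PICT than in PCT and 0 were higher. The Sox10 call rests on a PCT value barely above the array median, and S100b and Mag lay below the median on every array. The part of such cells in the Cldn19 difference was not tested. Cldn12, a claudin found in many tissues, stood at 352 in PICT, 318 in OMCT and 196 in PCT and passed the rule in no comparison, the largest relative difference being 0.21.

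Ocln, the tetraspan protein that lends strands their stability, had an intensity of 196 in PICT, 73.7 in OMCT and 136 in PCT. The healed site was again lowest, with 1.34 for PICT minus OMCT and -1.44 for OMCT minus PCT (-0.82 as deposited). A second, dimmer Ocln probe set gave 0.90 and -1.40 for these comparisons. F11r, an adhesion molecule of epithelium, endothelium and platelets, was more even, at 468 in PICT, 330.5 in OMCT and 492 in PCT, and only OMCT minus PCT, at -1.19, passed the rule (-0.56 as deposited).

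Of the 3 cytoplasmic plaque proteins, 1 passed the rule, Cgn in OMCT minus PCT. Tjp1, the founding zonula occludens protein, had an intensity of 875 in PICT, 650.0 in OMCT and 579 in PCT. Its relative differences were -0.01 for PICT minus PCT, 0.44 for PICT minus OMCT and -0.46 for OMCT minus PCT, none far beyond the spread between probe sets. Its second probe set read 420.3 in PICT, 451 in OMCT and 445 in PCT and gave -0.68, -0.08 and -0.61. The probe sets differed on PICT by more than that spread, so the position of Tjp1 in PICT is uncertain. Cgn, a plaque protein that binds the zonula occludens scaffolds and myosin, stood at 31.9 in PICT, 16.3 in OMCT and 35.3 in PCT. Its OMCT minus PCT difference of -1.44 was called on a PCT value barely above the array median, and the other differences were -0.72 (PICT minus PCT) and 0.72 (PICT minus OMCT). Tjp3, an epithelial relative of Tjp1, lay below the median on all arrays, at 7.10 in PICT, 4.43 in OMCT and 2.24 in PCT.

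**Figure D2:**
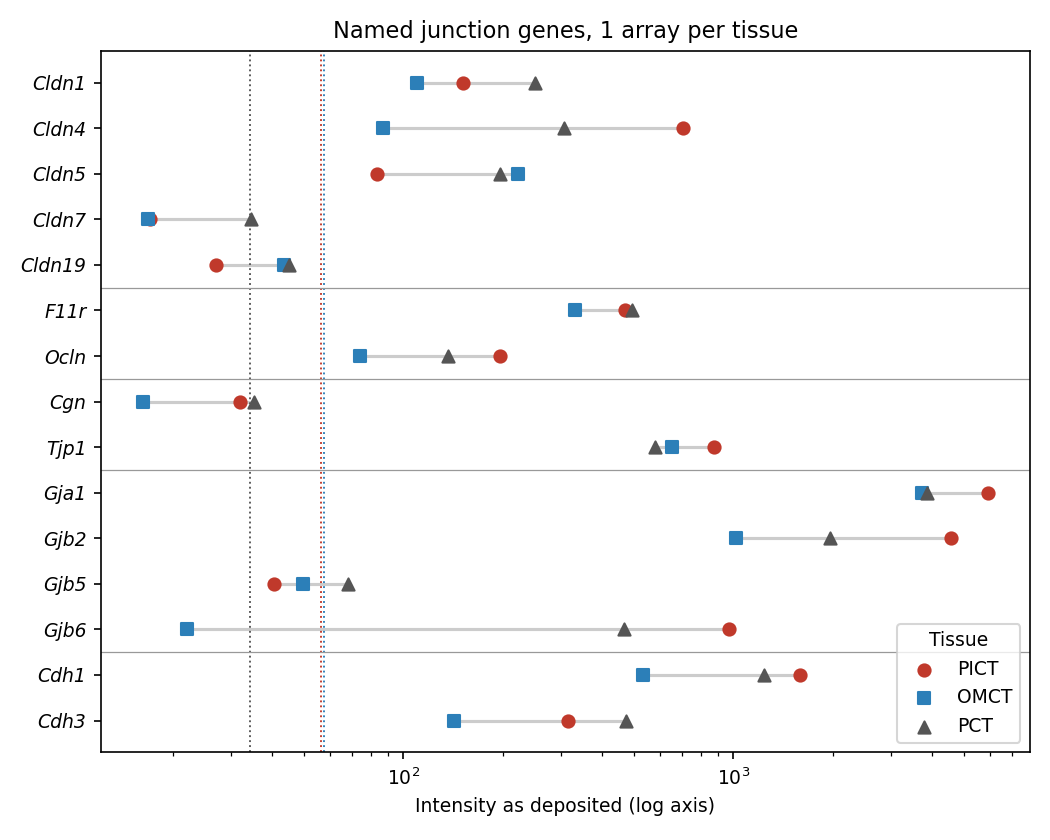
Deposited intensity (log axis) of the 15 named junction genes on the PICT, OMCT and PCT arrays, 1 point per array, with dotted lines at the 3 array medians. OMCT is the lowest point for Cldn4, Ocln, Gjb2, Gjb6, Cdh1 and Cdh3. It is also the lowest for Cldn1, F11r and Cgn and, by little, for Cldn7 and Gja1. PICT is the lowest for Cldn5, Cldn19 and Gjb5. Distances are to be read within a gene, since probe sets differ in brightness.

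The connexins held the widest gap of the set. Gjb6, the epidermal and cochlear connexin altered in hidrotic ectodermal dysplasia in humans, had an intensity of 972 in PICT, 22.1 in OMCT and 467 in PCT. Its OMCT signal exceeded the negative controls but lay at percentile 31.4 of that array, against 96.5 in PICT and 94.5 in PCT. The relative difference was 5.02 for PICT minus OMCT (32.4-fold on this scale), -4.58 for OMCT minus PCT and 0.44 for PICT minus PCT. Gjb2, the connexin most often altered in inherited deafness in humans and induced in wounded and hyperproliferative epidermis, had an intensity of 4552 in PICT, 1019 in OMCT and 1964 in PCT. It followed the same order as Gjb6 with a smaller span, at 2.17 for PICT minus OMCT, -1.56 for OMCT minus PCT (-0.94 as deposited) and 0.61 for PICT minus PCT (1.21 as deposited).

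Gjb2 and Gjb6 are direct neighbours on rat chromosome 15, with no protein-coding gene between them. Their promoters are shown because these genes differed most among the connexins and together, with that of Ocln, the remaining gene higher in PICT than in OMCT with a promoter window in the table, of Cldn5, which differed in the opposite direction, and of Cldn1, whose largest called difference, -1.76 for OMCT minus PCT, is about the size of that of Cldn5. Each is the 250 bases before the RefSeq gene start in GRCr8, on the minus strand except for Cldn1 on the plus strand, written in the direction of transcription. Capitals mark matches to the E-box CAGGTG, a sequence that the repressors Snail and Zeb bind, or the Sp1 box GGGCGG, searched on both strands. Gjb2 lies at chr15:35381954-35382203, Gjb6 at chr15:35410139-35410388, Ocln at chr2:33441199-33441448, Cldn5 at chr11:95718599-95718848 and Cldn1 at chr11:87926126-87926375.
Gjb2: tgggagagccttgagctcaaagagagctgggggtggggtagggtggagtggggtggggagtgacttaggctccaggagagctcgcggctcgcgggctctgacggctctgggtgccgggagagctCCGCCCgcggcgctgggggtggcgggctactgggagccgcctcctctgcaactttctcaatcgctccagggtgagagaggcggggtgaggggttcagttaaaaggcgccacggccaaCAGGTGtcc
Gjb6: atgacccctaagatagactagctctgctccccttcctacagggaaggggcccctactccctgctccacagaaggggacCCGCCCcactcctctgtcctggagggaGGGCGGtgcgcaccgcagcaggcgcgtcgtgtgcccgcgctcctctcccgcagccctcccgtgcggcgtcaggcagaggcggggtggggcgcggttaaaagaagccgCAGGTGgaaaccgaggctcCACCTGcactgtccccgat
Ocln: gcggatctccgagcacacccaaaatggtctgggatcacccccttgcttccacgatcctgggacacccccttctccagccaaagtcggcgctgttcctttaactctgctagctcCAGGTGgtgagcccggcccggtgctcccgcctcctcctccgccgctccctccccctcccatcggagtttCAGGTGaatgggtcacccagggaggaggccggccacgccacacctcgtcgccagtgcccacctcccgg
Cldn5: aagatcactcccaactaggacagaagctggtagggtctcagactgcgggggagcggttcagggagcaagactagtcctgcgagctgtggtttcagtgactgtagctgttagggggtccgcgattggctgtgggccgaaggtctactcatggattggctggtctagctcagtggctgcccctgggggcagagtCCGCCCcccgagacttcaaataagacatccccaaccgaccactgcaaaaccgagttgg
Cldn1: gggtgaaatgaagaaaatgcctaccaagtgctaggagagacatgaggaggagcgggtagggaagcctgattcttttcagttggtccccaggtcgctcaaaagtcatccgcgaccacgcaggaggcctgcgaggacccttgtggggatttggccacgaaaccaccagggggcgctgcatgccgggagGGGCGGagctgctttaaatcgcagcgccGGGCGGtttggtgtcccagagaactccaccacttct
The Gjb2 window holds 1 E-box, starting 9 bases before the gene start, and 1 Sp1 box. The Gjb6 window holds 2 E-boxes, at 38 and 19 bases before the start, and 2 Sp1 boxes, the Ocln window holds 2 E-boxes, at 137 and 68 bases, the Cldn5 window holds 1 Sp1 box and the Cldn1 window 2, both with no E-box of these letters. E-boxes also occurred in members that were not higher in PICT than in OMCT, with 4 in Cldn7, 3 in Gja3 and in Cldn6, and 2 in Gjd2. Of the 27 members with a window, 11 held the E-box (40.7%), against 15.6% of all 27457 promoter windows, and 16 held the Sp1 box (59.3%), against 32.4%. The member windows were also richer in G and C, with a median of 59.2% against 52.0% over all windows, and the shares are not adjusted for this. TATAAA occurred in 1 member window (3.70%, against 13.1% of all), the AP-1 letters TGANTCA in 2 (7.41%, against 6.36%) and the grainyhead-like letters AACCNGTT in 2 (7.41%, against 1.65%). These matches describe letters and are not binding sites.

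The other connexins did not share the low OMCT value to that extent. Gja1, the widespread connexin of fibroblasts, muscle and basal keratinocytes, had an intensity of 5892 in PICT, 3741 in OMCT and 3876 in PCT, with relative differences of 0.00 for PICT minus PCT, 0.67 for PICT minus OMCT and -0.67 for OMCT minus PCT. A second bright Gja1 probe set read 2556 in PICT, 1533 in OMCT and 2955 in PCT and gave -0.81, 0.75 and -1.57 for the same comparisons. The probe sets placed PICT above OMCT alike but differed on PCT by more than the SD between probe sets, so the position of Gja1 in PCT is uncertain. Gjb5, a connexin of stratified epithelium, stood at 40.6 in PICT, 49.7 in OMCT and 68.1 in PCT, highest around the tooth, with -1.24 for PICT minus PCT and -1.02 for OMCT minus PCT (-0.64 and -0.40 as deposited).

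Read from their brightest probe sets, the connexins of blood vessels passed the rule in no comparison on the relative scale. Gja4, an endothelial connexin, had an intensity of 169 in PICT, 242 in OMCT and 154 in PCT. Gja5, which marks arterial endothelium, stood at 75.1 in PICT, 124 in OMCT and 63.7 in PCT, and Gjc1, found in vascular smooth muscle and the conduction system of the heart, at 92.0 in PICT, 139.9 in OMCT and 45.4 in PCT. All 3 were brightest in OMCT, with PICT minus OMCT at -0.48, -0.64 and -0.54. A second, dimmer Gja5 probe set read 28.3 in PICT, 48.8 in OMCT and 45.2 in PCT. It gave -1.15 for PICT minus PCT, beyond the 2-fold line, -0.62 for PICT minus OMCT and -0.53 for OMCT minus PCT. The position of Gja5 in PCT is therefore uncertain. Gja3, a lens connexin 1 protein-coding gene away from Gjb2, had an intensity of 26.0 in PICT, 59.8 in OMCT and 35.1 in PCT and a PICT minus OMCT difference of -0.96. On the array where its neighbours Gjb2 and Gjb6 were dimmest it was not low, with 0.02 for OMCT minus PCT. This rests on the brighter Gja3 probe set. The other lay under the negative controls on all arrays, at 5.73 in PICT, 1.01 in OMCT and 5.24 in PCT.

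Both cadherins were lowest in the healed site. Cdh1, the cadherin of epithelial adherens junctions, had an intensity of 1595 in PICT, 532 in OMCT and 1243 in PCT, with 1.59 for PICT minus OMCT, -1.83 for OMCT minus PCT (-1.21 as deposited) and -0.24 for PICT minus PCT. Its second probe set lay below the negative controls on all arrays and adds nothing. Cdh3, which is enriched in basal layers and hair follicles, stood at 315 in PICT, 143 in OMCT and 472 in PCT. Its differences were 1.12 for PICT minus OMCT, -2.29 for OMCT minus PCT (-1.66 as deposited) and -1.17 for PICT minus PCT (-0.57 as deposited). These genes are direct neighbours on rat chromosome 19, and as deposited PICT was the brightest for Cdh1 and PCT for Cdh3.

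Genes outside the set that build the same and adjoining junctions were described by lists. Of 12 desmosomal genes, which anchor keratin filaments between cells, 7 passed as higher and 0 as lower in PICT minus OMCT (median 1.03), 9 were lower in OMCT than in PCT and 0 higher (median -1.53), and 0 passed the rule in PICT minus PCT. Dsc1, a desmocollin of upper epithelial layers, had an intensity of 525 in PICT, 27.1 in OMCT and 217 in PCT, a PICT minus OMCT difference of 3.92. Dsg1, the upper-layer desmoglein, differed by 1.64 and Evpl (envoplakin) by 1.49. Of 24 polarity and plaque genes, 4 were higher and 0 lower in PICT minus OMCT (median 0.38): Cgnl1 (paracingulin) at 2.86, Crb3 (an apical polarity protein) at 1.60, Pard3 (a polarity scaffold) at 1.36 and Tiam1 (a Rac activator) at 1.33. In OMCT minus PCT, 7 of them were lower and 0 higher (median -0.62), and in PICT minus PCT, 2 were lower and 0 higher (median -0.25). As deposited the desmosomal median was still below 0 for OMCT minus PCT, at -0.91, while those of the polarity and plaque genes were not, at 0.00 for OMCT minus PCT and 0.35 for PICT minus PCT.

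The adherens junction list held genes of both directions. Of 13 genes, PICT minus OMCT had 3 higher and 2 lower (median 0.23), and 4 were higher and 4 lower in OMCT than in PCT (median -0.13). Nectin4, an epithelial nectin, had an intensity of 876 in PICT, 85.4 in OMCT and 694 in PCT, with 3.25 for PICT minus OMCT. Cdh13 (T-cadherin) and Cdh11, a cadherin of mesenchymal cells, ran the other way, at -2.47 and -1.02 for PICT minus OMCT and 1.92 and 2.30 for OMCT minus PCT. In PICT minus PCT, 3 were higher and 0 lower (median -0.25), namely Nectin3 at 1.78, Cdh2 (N-cadherin) at 1.62 and Cdh11 at 1.28; as deposited the list medians against PCT turned positive, at 0.35 for PICT minus PCT and 0.50 for OMCT minus PCT. Of 7 genes for other junctional adhesion proteins, 1 was higher and 2 were lower in PICT minus PCT, 0 were higher and 2 lower in PICT minus OMCT, and 1 was higher and 1 lower in OMCT minus PCT. Among them Clmp, a relative of the adenovirus receptor, had an intensity of 289 in PICT, 1147 in OMCT and 75.0 in PCT. Esam, an endothelial adhesion molecule, stood at 158 in PICT, 652 in OMCT and 225 in PCT, with -1.97 for PICT minus OMCT and -1.09 for PICT minus PCT, while Epcam, an epithelial adhesion molecule, differed by -1.02 for PICT minus PCT and -1.75 for OMCT minus PCT. Neither of the 2 pannexins measured, relatives of connexins that form channels in single membranes, passed the rule.

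Marker genes of several cell types also differed between the arrays. Of 12 genes of differentiated oral epithelium, 11 were higher in PICT than in OMCT and 0 lower (median 4.22), and 11 were lower in OMCT than in PCT (median -4.35, or -3.72 as deposited). Their summed intensity was 28109 in PICT, 2759 in OMCT and 23547 in PCT, and the exception was Ivl, which stood at 1.71, 4.67 and 8.10 on the same arrays. Basal keratinocyte genes did not separate PICT from OMCT in this way: of 8, 0 were higher and 1, Krt15, was lower (median -0.04). Their sum was 24483 in PICT, 24262 in OMCT and 27836 in PCT. In PICT minus PCT, 2 of them (Krt15 and Itgb4) were lower and 0 higher (median -0.86, or -0.26 as deposited). In OMCT minus PCT, 1 (Lamb3) was lower and 0 higher (median -0.86, or -0.24 as deposited). The 6 members higher in PICT than in OMCT differed in the same direction as the upper-layer genes, and the part of upper-layer tissue in their differences was not tested.

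Endothelial marker genes leaned lower in PICT than in OMCT, but only part of them passed the rule. Of 8, 3 (Pecam1, Vwf and Plvap) were lower in PICT than in OMCT and 0 higher (median -0.90), and the same 3 were lower in PICT than in PCT and 0 higher (median -0.88, or -0.27 as deposited). Their summed intensity was 2665 in PICT, 4679.9 in OMCT and 2757 in PCT. Plvap, a protein of capillary fenestrae, had an intensity of 59.0 in PICT, 329 in OMCT and 204 in PCT, the same order of deposited intensities as Cldn5. On the relative scale both were lowest in PICT, but OMCT minus PCT was 0.04 for Plvap and -0.44 for Cldn5. Tek, an endothelial receptor, did not follow, at 592 in PICT, 588 in OMCT and 486 in PCT. Kdr, the main receptor for vascular endothelial growth factor, stood at 576 in PICT, 774 in OMCT and 432 in PCT. In PICT minus OMCT, Kdr (-0.40), Tie1 (-0.91), Emcn (-0.88) and Egfl7 (-0.74) lay below 0 but short of the rule. The part of endothelial content in the Cldn5 difference was not tested. Fibroblast genes were lower for 4 of 8 in PICT than in OMCT (median -0.96) and higher for 5 of 8 in OMCT than in PCT (median 1.55), and macrophage genes were higher for 5 of 8 in PICT than in PCT (median 2.02) and for 7 of 8 in OMCT than in PCT (median 2.59), with 2 lower in PICT than in OMCT (median -0.57).

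**Figure D3:**
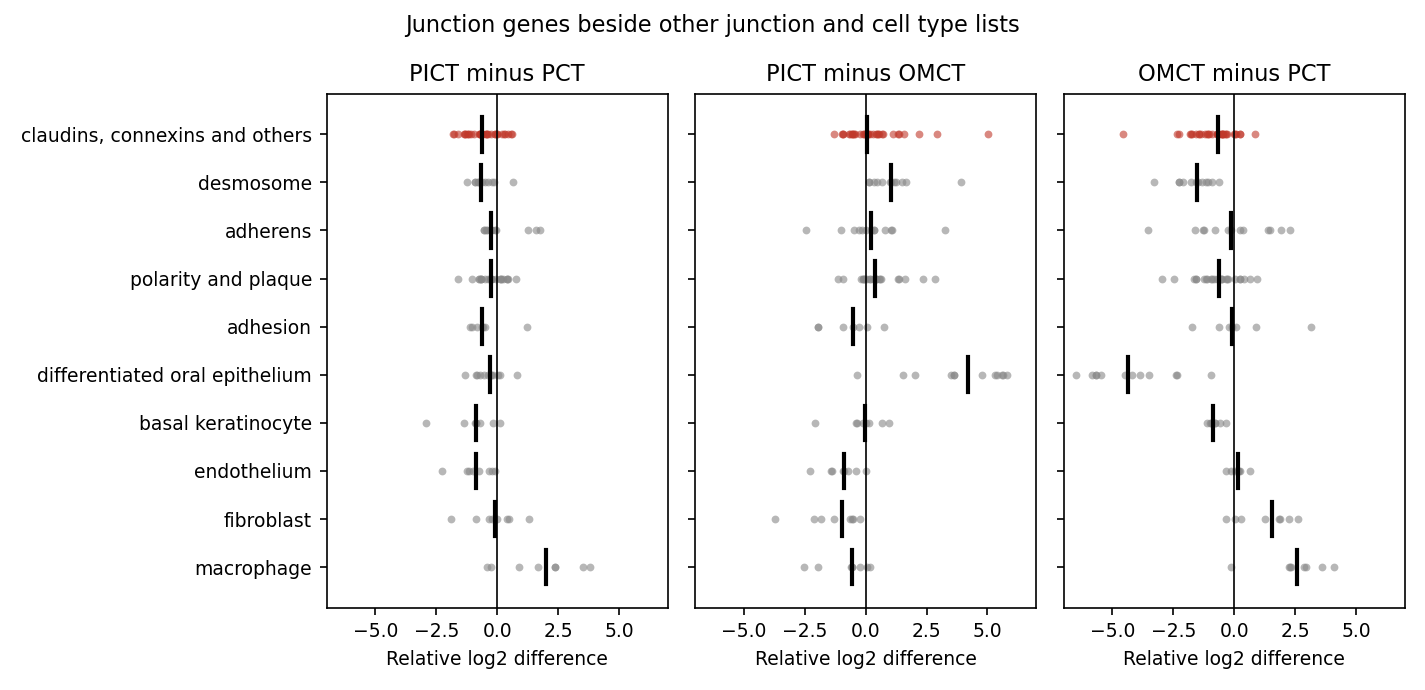
Relative log2 difference of each gene in the junction set (red), in 4 further junction lists and in 5 cell type lists (grey), with a black bar at each list's median. Differentiated oral epithelium has medians of 4.22 in PICT minus OMCT and -4.35 in OMCT minus PCT, whereas the junction set has 0.06 and -0.68 with a tail towards the epithelial side.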

How the data were processed

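RNA from laser-microdissected tissue was amplified and biotin-labelled with a GeneChip 3'IVT kit, per the labels' protocols, and hybridised to 1 rat array per tissue (3 in all). The authors deposited linear intensities, 1 for each of 31099 probe sets, as the range of values shows; no source used here says how they were summarised or scaled. Symbols came from a platform annotation dated 2016, in which 20826 non-control probe sets had a single symbol, giving 14217 genes; each gene was read from its brightest probe set (mean log2 over the arrays). RefSeq tables (GRCr8) matched all 34 members by gene ID, and 27 had a promoter window.

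Values were log2(intensity + 8.56), the constant being the 20th percentile of all values, minus the array median (Python 3.11.15, pandas 2.3.3, NumPy 2.4.6); a fold on this scale understates differences of dim genes. No test was possible with 1 array per tissue, and the number of arrays limits the precision. Counts of members in each comparison, on the centred and deposited scales, are set beside those over all genes. The procedure was tested on simulated data. The set, the lists, the centring and the rules were chosen with earlier results of these data known. Named with intensities were the members called in any comparison, the 5 with the highest mean log2 value and Tjp1, Ocln, Cdh1, Cdh3, Cldn1, Cldn5, Gja1, Gjb2 and Gjb6; further members and marker genes, and the printed promoters, were picked after their values were seen. Of the listed cell types, osteoblast, smooth muscle, skeletal muscle, salivary gland and simple epithelium are given in the closing section. Alternatives were deposited values, quantile normalization, other pseudocounts, no level filter and the mean over probe sets.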

Additional observations from a re-analysis of the deposited data

How the results depend on the processing

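Over 6 alternative settings, no called difference of a named member changed sign. The counts against PCT moved most. With values as deposited, PICT minus PCT had 3 members higher and 1 lower, OMCT minus PCT had 1 higher and 5 lower, and the members' medians were -0.026 and -0.058. With the pseudocount at the median intensity (48.4), 1 member was lower in PICT than in PCT and 6 in OMCT than in PCT. Without the filter on low values, 10 were lower in PICT than in PCT, and with a pseudocount of 1, 2 were lower in PICT than in OMCT (Cldn5 and Gja3). Shares over all genes were computed only for centred and deposited values, so counts under the other settings have no background beside them. The count higher in PICT than in OMCT was 5 to 7; Gjb6, Cldn4, Gjb2 and Ocln were in it under every setting, while Cdh3 was not with the pseudocount at the median and Cdh1 was not with the mean over probe sets, 1 of which was not above the negative controls. Cldn5 was lower in PICT than in both other tissues under every setting. Quantile normalization called the same genes as centring in all 3 comparisons. Causes of these shifts were not tested beyond what each setting changes by construction. No paired analysis was possible because each tissue has 1 array, and for the same reason no array could be left out. Signals near the negative controls (8.36 in PICT, 3.60 in OMCT and 5.71 in PCT) carry no reliable size of difference.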

Other observations

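Of the dim claudins and gland genes, some were lowest in the healed site and others were not. Cldn8, a claudin of tight glandular and renal epithelia, had an intensity of 19.6 in PICT, 2.36 in OMCT and 6.30 in PCT. Cldn10, found in secretory and renal epithelia, stood at 10.3 in PICT, 4.53 in OMCT and 10.0 in PCT. By contrast, Cldn2 was brightest in OMCT, at 11.6 in PICT, 23.9 in OMCT and 9.37 in PCT. Cldn11 also was as deposited, at 13.9 in PICT, 22.2 in OMCT and 15.9 in PCT, though its second probe set was lowest in OMCT. On the relative scale Cldn11 was highest in PCT, with -0.29 for OMCT minus PCT. Aqp5, a water channel of salivary acini, had an intensity of 30.1 in PICT, 1.66 in OMCT and 2.31 in PCT, and Lpo (lactoperoxidase) stood at 55.9 in PICT, 5.02 in OMCT and 20.6 in PCT. The other salivary gland genes did not follow: Smr3a stood at 9.57 in PICT, 11.7 in OMCT and 1.20 in PCT, and Bpifa2 at 0.986, 0.478 and 0.406 on the same arrays. Cldn8, Cldn10, Aqp5 and Lpo lay below the array median in PICT, and the OMCT values of Cldn8 and Aqp5 and the PCT value of Aqp5 were under the negative controls. Of the 4 salivary gland genes measured, 0 passed the 2-fold rule in any comparison. Whether gland tissue was cut out with these sections was not tested.

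Genes of simple or junctional epithelium were brightest in PCT as a sum, which 2 genes carried. The summed intensity over 5 genes was 294 in PICT, 131 in OMCT and 1196 in PCT. Krt19 had an intensity of 20.3 in PICT, 82.6 in OMCT and 603 in PCT, and Krt7 stood at 226 in PICT, 6.25 in OMCT and 549.6 in PCT. Krt8 was lowest in PCT as deposited, at 38.8 in PICT, 19.0 in OMCT and 15.4 in PCT. It lay below the median on every array and passed the rule in no comparison, with a relative OMCT minus PCT difference of -0.42. Krt18 and Krt20 were dim, between 2.11 and 16.1. Cldn1, Cldn7, Gjb5 and Cdh3 were likewise highest in PCT, on the relative and the deposited scale. So were F11r, Cgn, Cldn3, Cldn19 and some dim members, and this order was thus not particular to those genes. The part of junctional epithelium in it was not tested.

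Of 5 smooth muscle genes, 0 differed by the rule in PICT minus OMCT or PICT minus PCT and 1 was lower in OMCT than in PCT. Of 6 skeletal muscle genes, 1, Myh1, was higher in PICT than in OMCT and lower in OMCT than in PCT, at 1.06 and -1.35. Its intensity was 3339 in PICT, 1620 in OMCT and 2681 in PCT, whereas Acta1, Ckm, Myh2 and Mb lay below the median on every array. The Myh1 signal was thus not shared by most of the list. Of 4 osteoblast and osteocyte genes, 2 were lower in PICT than in PCT and 0 higher, 1 was higher and 1 lower in PICT minus OMCT, and 1 was higher and 2 lower in OMCT minus PCT. Bglap (osteocalcin) had an intensity of 266 in PICT, 10.1 in OMCT and 434 in PCT, whereas Ibsp (bone sialoprotein) stood at 300.3 in PICT, 997 in OMCT and 232 in PCT.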
